A study of Mus musculus with 16 samples.

Results

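Haematopoietic stem cells (HSCs) from mice given palbociclib and rapamycin together were compared with HSCs from mice given the solvent alone, across all genes expressed in them. The members are the 8 libraries whose titles name these treatments, 4 of the combination and 4 of vehicle, out of 16 libraries in the series. The strain was C57BL/6J throughout, and no genotype differed between groups. Vehicle was 20% DMSO and 40% PEG 400 in PBS, and the combination was palbociclib at 30.4 mg/kg and rapamycin at 6.4 mg/kg of body weight in that same solvent. Every mouse, vehicle included, received 100 µL into the peritoneum every 48 h for 85 days. The remaining 8 libraries, 4 of palbociclib alone at 30.4 mg/kg and 4 of rapamycin alone at 6.4 mg/kg, are used below only to place the combination. The labels used here state neither the age and sex of the mice nor whether 1 library is 1 animal. The p-values therefore describe how far these libraries differ from each other, part of which can be technical. By its title the series concerns cell size as a determinant of stem cell potential in aging, and the labels state no further purpose.

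HSCs sit at the top of blood formation and spend most of their time outside the cell cycle. Palbociclib inhibits CDK4 and CDK6, the kinases that with D-type cyclins phosphorylate RB and so release the E2F factors that switch on replication genes. Rapamycin binds FKBP12 and the complex inhibits mTOR complex 1, which couples nutrients to ribosome production and translation and restrains autophagy. Interferon-stimulated genes, which recur below, are switched on through STAT and IRF factors when cells sense virus or interferon, and stem cells keep some of them active without infection.

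Each library came from 10000 cells sorted in G0 or G1 after depletion of lineage-positive cells, stained for CD150, CD48, Sca-1 and CD117, and was amplified with a low-input kit. The 8 libraries held 10146176 to 15328830 counts, and 16704 to 20224 genes had a count. The HSC gene Procr was present in all 8 on the length-scaled TPM of the deposited table, at 34.3 to 152.5 in vehicle and 92.5 to 151 in combination libraries. RNA typical of other blood cells was present too. Immunoglobulin and B cell genes made up 0.353%, 0.725%, 1.68% and 8.08% of vehicle libraries 1 to 4 and 0.459%, 0.00759%, 1.16% and 0.762% of combination libraries 1 to 4. Neutrophil granule genes made up 1.73%, 7.76%, 5.29% and 2.64% of the vehicle and 3.21%, 1.46%, 8.42% and 6.13% of the combination libraries. Of these 8, vehicle libraries 3 and 4 had the lowest median correlation with the other libraries (0.866 and 0.880). Vehicle 3 had the lowest share of ribosomal protein genes, 2.60% against 4.84% to 5.17% in the other vehicle libraries. Values below are CPM, counts scaled to library size with TMM factors, listed in the order of libraries 1 to 4. Counts of genes that lead a paragraph were repeated without the libraries that stand apart.

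Of 50686 genes in the files, 15308 were expressed highly enough to test. In edgeR's quasi-likelihood test 0 of them (0%) passed a Benjamini-Hochberg adjusted p of 0.05, and the lowest adjusted p, 0.218, was shared by 57 genes. At an unadjusted p under 0.05 there were 1611 genes, against 765 that the p-value scale alone gives, 764 of them higher in the combination (4.99% of genes tested) and 847 lower (5.53%). All 4 combination libraries lay above all 4 vehicle libraries for 518 genes (3.38%) and below them for 333 (2.18%). DESeq2 called 184 genes, 71 higher (0.464%) and 113 lower (0.738%), while limma-voom and limma on log2 TPM called 0. The median log2 fold change of all genes was -0.02, with 5% of genes below -1.47 and 5% above 1.03. Since no gene passed, "higher" and "lower" below describe the fitted log2 fold change of combination minus vehicle, with 4 libraries per group. Its standard error (SE) comes from edgeR's test, whose spread is estimated over all 16 libraries. No member of any list below passed edgeR's test in this comparison. In these bulk libraries fewer cells of a type and less RNA per cell cannot be told apart.

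**Figure D1:**
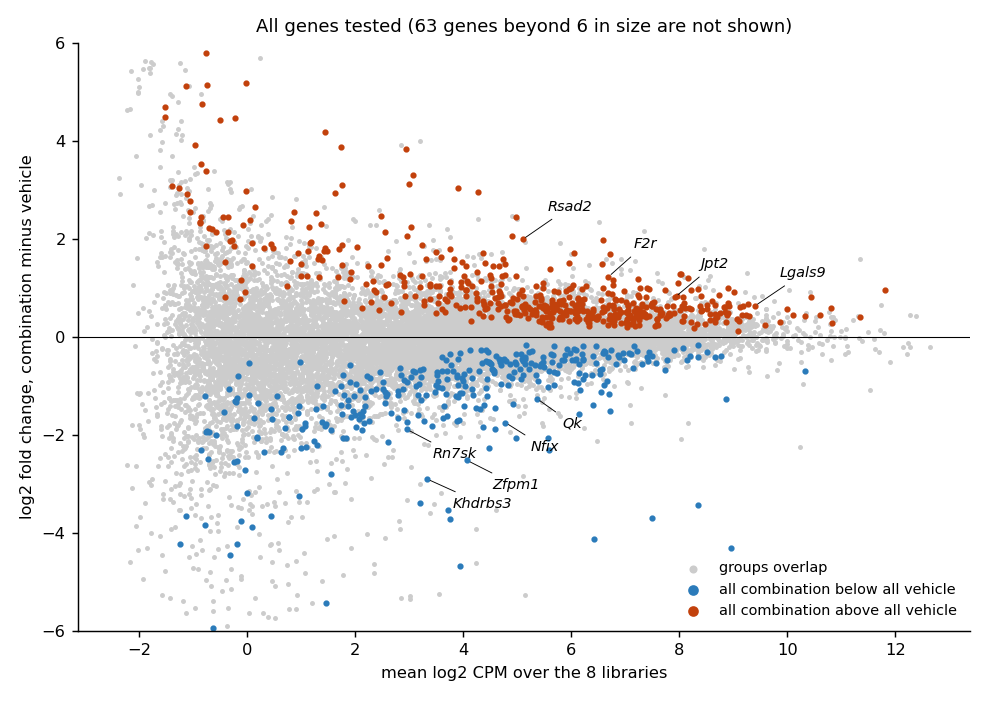
Mean log2 CPM of the 8 libraries (x axis) against the log2 fold change of combination minus vehicle (y axis) for the genes tested, with 63 genes beyond 6 in size left off. Orange points are the 518 genes with every combination library above every vehicle library, blue points the 333 with every one below, and grey points genes whose groups overlap. The orange points gather at high expression and small fold changes, the blue ones reach larger fold changes at lower expression.

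The higher and lower genes differed in abundance and base composition. Among the 651 genes with a mean log2 CPM of 8 or more, 10.1% lay wholly higher and 1.84% wholly lower in the combination, against 2.18% and 3.0% of the 2932 genes between 2 and 4. By the GC content of the longest transcript, the 3167 genes at 55% or more had a median log2 fold change of -0.18, with 1.04% wholly higher and 3.32% wholly lower. The 3098 genes between 40% and 45% had a median of 0.08, with 4.74% and 1.52%. Genes with a merged exonic length under 1000 bases had a median of -0.18. With an offset for GC content in each library, chosen after seeing the data, 0 genes passed and 39.9% of genes at p under 0.05 were higher, against 47.4% without it. That share also depended on the tool and the libraries, at 64.2% in limma-voom, 66.3% on log2 TPM and 59.5% without vehicle 3 and 4. On log2 TPM, 595 genes lay wholly higher and 188 wholly lower. The part of base composition in single results below was otherwise not tested.

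The genes with the smallest p among those with non-overlapping groups were each followed library by library, 12 higher and 12 lower. Jpt2 (ENSMUSG00000024165, chromosome 17, 24937419 to 24960689 of mm10), which encodes a receptor protein for the calcium-releasing messenger NAADP, measured 189.6, 165, 172 and 210.3 CPM in vehicle and 318, 327, 300.1 and 348 in combination libraries. Its log2 fold change of 0.81 ± 0.14 was small but its libraries were tight, and its p was the lowest of all genes (2.59e-05, edgeR adjusted p = 0.218). Rsad2, the antiviral enzyme viperin (ENSMUSG00000020641, chromosome 12, 26442746 to 26456452), measured 13.4, 26.6, 19.8 and 13.2 in vehicle and 42.7, 44.8, 111 and 91.7 in the combination (1.98 ± 0.39, edgeR adjusted p = 0.218), with combination libraries 3 and 4 about level with each other and above libraries 1 and 2. F2r, the thrombin receptor PAR1, measured 55.6, 83.5, 63.2 and 72.3 in vehicle and 145, 127, 142 and 226 in combination libraries (1.22 ± 0.25). Zfp46, a zinc finger gene, was low in level, at 6.37, 6.41, 8.23 and 6.39 in vehicle and 23.5, 27.8, 15.9 and 18.1 in the combination (1.64 ± 0.35).

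The other 8 higher genes had known roles in cell death, translation, metabolism and immunity. Bcl2l11, which encodes the death-promoting protein BIM, measured 26.1, 59.7, 47 and 54.2 CPM in vehicle and 83.0, 113, 115 and 76.5 in combination libraries, a log2 difference of 1.05 ± 0.23. Eif4a1, the RNA helicase of the cap-binding complex, measured 282, 327, 162 and 261 in vehicle and 482, 467, 466 and 432 in the combination, so vehicle 3 was the lowest library and the combination libraries differed little from each other. Paics, an enzyme of purine synthesis, measured 288, 268, 309.7 and 304 in vehicle and 452, 435, 443 and 492 in the combination, with a gap between the groups wider than the range within either. The remaining 5 had log2 fold changes from 0.62 to 1.03: Lgals9 encodes galectin-9, Nbr1 an autophagy receptor, Ndc1 a membrane nucleoporin, Epsti1 an interferon-responsive protein and Wsb1 a ubiquitin ligase adaptor. Wsb1 split by library in the way Rsad2 did, at 236, 215, 372 and 389 in combination libraries against 173, 173, 151 and 129.7 in vehicle.

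Among the 12 lower genes, several act in transcription and RNA processing. Zfpm1, the GATA1 partner FOG1 (ENSMUSG00000049577, chromosome 8, 122282141 to 122337251), measured 84.1, 25.4, 22.4 and 43.5 CPM in vehicle and 11.8, 7.62, 5.76 and 5.27 in combination libraries, a log2 fold change of -2.52 ± 0.47 (edgeR adjusted p = 0.218). Vehicle library 1 was its highest, and every vehicle library was above every combination library. Rn7sk, the 7SK RNA that holds the elongation factor P-TEFb inactive, measured 17.9, 17, 8.43 and 16.4 in vehicle and 4.27, 3.81, 3.70 and 4.27 in the combination (-1.89 ± 0.36), all 4 combination libraries lying close together. Qk, an RNA-binding protein of splicing (ENSMUSG00000062078, chromosome 17, 10202601 to 10319854), measured 54.5, 53.3, 66.5 and 85.8 in vehicle and 35.0, 26.7, 27.8 and 18.8 in the combination (-1.26 ± 0.24). Nfix, a transcription factor that HSCs need to survive transplantation, measured 43.4, 59.3, 69.0 and 33.9 in vehicle and 18.2, 17.3, 13.2 and 12.4 in the combination (-1.75 ± 0.37). Brd1, a subunit of histone acetyltransferase complexes, measured 66.6, 45.8, 32.2 and 55.5 in vehicle and 25.4, 21.5, 15.6 and 14.4 in the combination, and Khdrbs3, an RNA-binding splicing regulator, 31.6, 26.5, 43.4 and 13.4 in vehicle and 5.06, 5.04, 2.47 and 2.73 in the combination. In each of these the lowest vehicle library exceeded the highest combination library.

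The other 6 lower genes were of other kinds. Cd82, a tetraspanin linked to HSC quiescence, measured 94.0, 102, 213 and 160.5 CPM in vehicle and 40.6, 67.8, 60.9 and 47.8 in combination libraries (-1.39 ± 0.31). Egln1, the oxygen sensor PHD2 that marks HIF-1 alpha for degradation, measured 21.5, 13.5, 27.6 and 27.4 in vehicle and 8.70, 7.96, 8.02 and 3.91 in the combination (-1.65 ± 0.38), with combination 4 the lowest. Was, the actin regulator of blood cells mutated in Wiskott-Aldrich syndrome, measured 39.3, 20.4, 45.9 and 32.4 in vehicle and 18.4, 12.3, 12.0 and 10.1 in the combination. Znrf2 encodes a ubiquitin ligase (-1.45 ± 0.28) and Snx30 a sorting nexin of endosomes (-1.45 ± 0.32). Galnt11, a glycosyltransferase, had close libraries, at 42.8, 40.4, 36.4 and 40.6 in vehicle and 25.6, 19.9, 20.4 and 24.0 in the combination (-0.83 ± 0.18). All 24 genes kept their direction in all 18 alternative analyses, none of which passed any of them outside DESeq2. They were picked for groups that do not overlap, so leaving libraries out could hardly turn a direction.

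**Figure D2:**
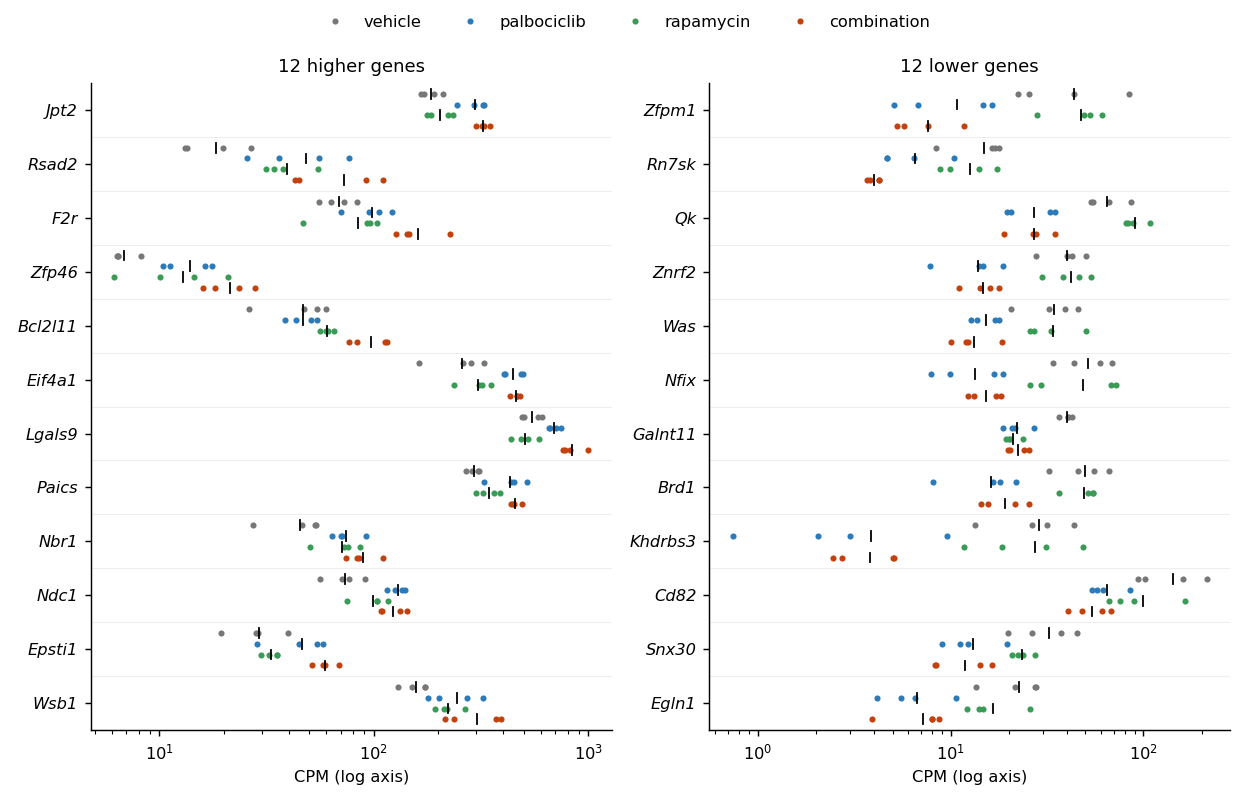
CPM on a log axis (x) of the 12 higher and 12 lower genes of smallest p (rows) in each of the 16 libraries. Points are single libraries, black bars group means, and colours the 4 treatments; in the right panel the palbociclib and combination points mostly share a range, as in Khdrbs3, while vehicle and rapamycin points mostly lie to their right.

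The combination was also set beside each drug alone, in contrasts of the same 16-library fit whose fold changes do not use the vehicle means. Against rapamycin alone, 5 of the 15308 genes passed edgeR's adjusted p of 0.05 (0.0327%), 4 higher and 1 lower in the combination, and they are named here because of their values. Qk measured 81.1, 88.0, 108 and 83.6 CPM after rapamycin and 35.0, 26.7, 27.8 and 18.8 after both drugs (log2 difference -1.74 ± 0.25, edgeR adjusted p = 0.0197). Irf7, the interferon regulatory factor that amplifies interferon production, measured 38.0, 31.2, 34.8 and 29.4 after rapamycin and 139, 87.5, 275 and 244 after both (2.48 ± 0.40, edgeR adjusted p = 0.0361). Selp, the adhesion molecule P-selectin, measured 65.9, 36.3, 75.2 and 70.6 after rapamycin and 185, 210.1, 224 and 243 after both (1.80 ± 0.25, edgeR adjusted p = 0.0197).

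Bhlhe40, a transcriptional repressor of the circadian and hypoxia responses, measured 17.9, 14.2, 11.5 and 22.5 CPM after rapamycin and 47.4, 56.3, 51.9 and 53.2 after both drugs (1.66 ± 0.25, edgeR adjusted p = 0.0245). Gpr4, a proton-sensing receptor, measured 28.3, 18.9, 15.7 and 21.5 after rapamycin and 82.4, 106, 103 and 90.8 after both (2.18 ± 0.33, edgeR adjusted p = 0.0265). In all 5 genes the groups of this contrast did not overlap. Against vehicle the same combination libraries gave Bhlhe40 at -0.36 ± 0.24 with overlapping groups, Gpr4 at 0.79 ± 0.32 without overlap (vehicle 63.4, 79.3, 26.6 and 51.1 CPM) and Selp at 0.49 ± 0.25, overlapping. Against palbociclib alone 0 genes (0%) passed, with a lowest edgeR adjusted p of 0.485, and 436 had an unadjusted p under 0.05, against 1498 in the contrast with rapamycin. A gene that misses this test is not shown to be equal in both groups.

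On a log2 scale the palbociclib mean was nearer to the combination than to the vehicle mean in 12 of the 12 lower genes and 10 of the 12 higher ones. The rapamycin mean was nearer to the combination in 1 of the 12 lower and 5 of the 12 higher genes. These means are set side by side as levels, since a gene chosen for its difference from vehicle fixes part of such a count. Zfpm1 averaged 10.7 ± 5.64 CPM (SD, n = 4) after palbociclib and 47.6 ± 13.9 after rapamycin, and the combination differed from rapamycin by -2.64 ± 0.48 (edgeR adjusted p = 0.0656) and from palbociclib by -0.50 ± 0.46. Khdrbs3 averaged 3.85 ± 3.95 after palbociclib and 27.5 ± 16.2 after rapamycin. Galnt11 was the 1 lower gene with rapamycin near the combination, at 22.1 ± 3.58 and 20.9 ± 1.94, both near the combination's 22.5 ± 2.75 and below the vehicle's 40.1 ± 2.69. Among the higher genes, Bcl2l11 was at 46.8 ± 7.21 after palbociclib and 60.6 ± 3.54 after rapamycin against 96.9 ± 20.0 after both. Neither its difference from palbociclib, 1.05 ± 0.23, nor that from rapamycin, 0.68 ± 0.22 (edgeR adjusted p = 0.326), passed.

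DESeq2 called genes that edgeR did not, and 133 of its 184 calls had groups that did not overlap. Of the 6 lower calls that the naming rule takes, all with an edgeR p under 0.001, 3 were far higher in 1 or 2 vehicle libraries than in the rest. Ighg2c, an immunoglobulin heavy chain of plasma cells whose reads related chains can share, measured 4.56, 1203, 5.25 and 6321 CPM in vehicle and 1.03, 0, 0.617 and 0.727 in combination libraries. Acp5, the acid phosphatase of osteoclasts and activated macrophages, measured 8.35, 12.3, 24.0 and 175 in vehicle and 7.67, 2.72, 8.84 and 4.73 in the combination, and Ephx1, a detoxifying epoxide hydrolase, 12.6, 18.7, 20.7 and 109 in vehicle and 8.86, 2.86, 1.34 and 2.18 in the combination, and vehicle 4 was the highest library in all 3. The higher calls named by the same rule were Oas1g, Rsad2, Zfp46, Irf7, F2r and Eif4a-ps4, a pseudogene that can share reads with Eif4a1.

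Among the genes of the drugs' targets, only Cdk6 of the 9 named had groups that did not overlap. It measured 107, 173, 68.9 and 169.9 CPM in vehicle and 319.6, 230.1, 239.5 and 223 in combination libraries (0.97 ± 0.33, edgeR adjusted p = 0.314). Its combination library 1 was well above the other 3. Cdk4 measured 535, 539, 527 and 576 in vehicle and 659, 663, 515 and 561 in the combination, and the groups overlapped. The D-type cyclins Ccnd1, Ccnd2 and Ccnd3 had log2 fold changes of 0.17, 0.25 and 0.33, and Rb1, which palbociclib keeps unphosphorylated at the protein level, 0.41. Mtor was at 0.24 ± 0.34, its partner Rptor at -0.12 ± 0.24 and Fkbp1a, which encodes the rapamycin receptor FKBP12, at -0.14 ± 0.19, all with overlapping groups. The sign for Ccnd1 turned to -0.06 without vehicle 4, and that for Mtor to -0.25 on log2 TPM.

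Interferon-stimulated antiviral effectors were the list with the highest median, with mast cell and basophil genes close behind at 1.00. Of 26 genes, 25 were tested, and Ifi44l had no count in any library. The tested genes were higher in 24 cases, with a median log2 fold change of 1.01 (quartiles 0.71 and 1.62) against -0.02 over all genes. Of the 25, 16 were higher at an unadjusted p under 0.05 (64.0% against 4.99% of all genes), 14 lay wholly above vehicle (56.0% against 3.38%), 0 wholly below and 6 were called higher by DESeq2. The 16 became 12 to 19 over the alternatives, 12 being the count without vehicle 3 and 4 together. This pattern was known from an earlier analysis of the same files and is not independent of it.

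Regulatory sequence was read to describe these genes. The list is made of interferon-stimulated genes, so a high share of such sites comes with its membership. Why the genes were higher here was not tested. The interferon-stimulated response element binds STAT and IRF factors, and its core, GAAANNGAAA, was searched on both strands of the 250 bases before each start, with overlapping matches counted. Of the 25 tested genes, 22 had a promoter in the RefSeq table of GRCm38.p6, and 9 of these (40.9%) held the core, against 3.46% of 27025 genes. The 9 were Rsad2, Ifit1, Ifit3, Ifit3b, Ifitm2, Bst2, Oas1a, Oas1g and Oas3. Ifitm2 holds the core and was not higher. Isg15, of the separate list of ISG15 modification, is shown beside them and was the only holder among 5 promoters of that list. Each stretch below is 60 bases, 5′ to 3′ on the gene's strand, with matches in capitals.
Rsad2 (chr12:26456538-26456597, minus strand): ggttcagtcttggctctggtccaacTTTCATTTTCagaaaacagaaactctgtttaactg
Oas1a (chr5:120907526-120907585, minus strand): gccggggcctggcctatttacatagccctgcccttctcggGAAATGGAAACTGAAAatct
Bst2 (chr8:71537562-71537621, minus strand): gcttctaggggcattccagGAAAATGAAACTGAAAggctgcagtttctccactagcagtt
Ifit3 (chr19:34583382-34583441, plus strand): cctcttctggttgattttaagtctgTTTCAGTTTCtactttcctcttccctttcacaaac
Ifit3b (chr19:34607778-34607837, plus strand): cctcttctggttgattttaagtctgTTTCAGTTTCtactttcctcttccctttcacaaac
Ifitm2 (chr7:140955973-140956032, minus strand): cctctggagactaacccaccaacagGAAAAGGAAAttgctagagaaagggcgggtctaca
Isg15 (chr4:156200850-156200909, minus strand): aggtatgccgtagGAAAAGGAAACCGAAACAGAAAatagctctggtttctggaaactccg
Ifit3 and Ifit3b are neighbouring copies whose stretches before the start are letter for letter the same. Their transcripts were not compared. Such copies can share reads, so their counts are uncertain as single genes. A match is a description of the letters and shows no binding.

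The members differed in size and evenness. Oas1g, 1 of the synthases that make the activator of RNase L, measured 13.7, 18.8, 10.1 and 18.6 CPM in vehicle and 46.1, 39.3, 93.5 and 75.3 in combination libraries (2.05 ± 0.49). Oasl2, of the same family, measured 53.2, 72.7, 57.3 and 49.9 in vehicle and 114, 121, 212 and 206 in the combination (1.49 ± 0.38). Bst2, tetherin, which holds budding virus at the cell surface, had a small but even difference, at 72.7, 68.7, 56.1 and 82.0 in vehicle and 105, 104, 109 and 97.1 in the combination (0.57 ± 0.15). Oas1a (1.16 ± 0.33) is a close paralog of Oas1g that may share its reads, so the pair is uncertain as single genes. Each lay wholly above vehicle in all 4 combination libraries. Ifit3, which blocks translation of viral RNA with its family, ranged from 7.28 CPM in combination 2 to 65.1 in combination 4, against 5.08, 7.10, 0.324 and 2.42 in vehicle. Ifitm3, which blocks virus entry, measured 1118, 1328, 743 and 1064 in vehicle and 1587, 1442, 2273 and 2175 in the combination (0.81 ± 0.28), while its neighbour Ifitm2 was the 1 gene not higher, at -0.01 ± 0.15.

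**Figure D3:**
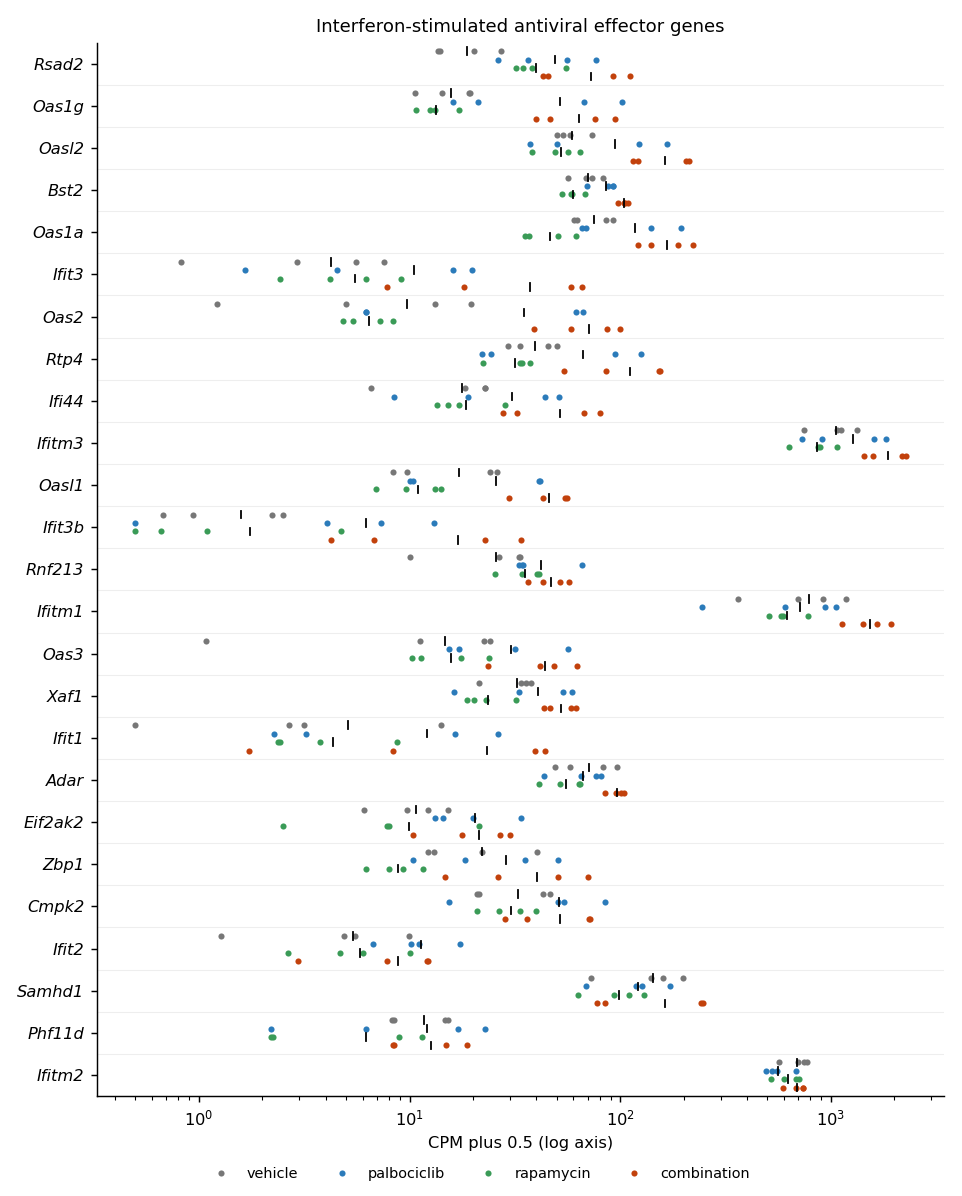
CPM plus 0.5 on a log axis (x) of the 25 tested antiviral effector genes (rows, by p), in 4 treatments; points are single libraries and black bars are group means. Combination points lie to the right of the vehicle points in the upper rows, without overlap in 14 genes, and rapamycin points mostly stay with vehicle.

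Combination libraries 3 and 4 were both above 1 and 2 in 20 of the 25 genes. Rtp4, a chaperone induced by interferon, measured 32.8, 49.4, 44.7 and 28.8 CPM in vehicle and 84.9, 53.8, 152 and 153 in the combination, and Ifit1 0, 2.17, 13.7 and 2.64 in vehicle and 7.83, 1.23, 39.1 and 43.4 in the combination. The same 2 libraries had the highest sums of late neutrophil markers within the combination, 24084, 12764, 74957 and 59708 CPM in combination libraries 1 to 4 against 12991, 67161, 32947 and 27659 in vehicle. Their part in the interferon result was not tested. The median log2 fold change of the list was 0.84 without combination 3, the lowest of any alternative. After palbociclib alone the same genes had a median of 0.69 against vehicle and after rapamycin alone -0.24. These 3 comparisons share the vehicle libraries.

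Other parts of the interferon system were less even. The 6 genes of ISG15 modification were all higher, 3 at p under 0.05, with Isg15 itself, a ubiquitin-like protein, at 13.1, 24.9, 18.0 and 16.2 CPM in vehicle and 35.8, 28.7, 62.2 and 47.5 in combination libraries (1.27 ± 0.42). Usp18, the protease that removes it and damps the receptor, measured 11.9, 17.8, 6.42 and 16.9 in vehicle and 31.0, 24.0, 47.9 and 48.1 in the combination (1.51 ± 0.45). Among 11 nucleic acid sensors 8 were higher, 3 of them at p under 0.05 (27.3% of the list against 4.99% of all genes). Cgas, the sensor of DNA in the cytosol, measured 7.15, 8.23, 17.5 and 17.1 in vehicle and 28.7, 27.3, 36.5 and 33.3 in the combination (1.33 ± 0.38), and Ddx58, the RNA sensor RIG-I, 26.6, 33.1, 20.6 and 44.5 in vehicle and 57.2, 57.4, 111 and 100.3 in the combination (1.39 ± 0.44). Both lay wholly above vehicle, 18.2% of the list against 3.38% of all genes.

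The 17 interferon-stimulated GTPases, which act on the vacuoles of intracellular microbes, split. Irgm1 was higher at 87.4, 111, 79.7 and 77.3 CPM in vehicle and 119, 135, 135 and 162 in the combination (0.63 ± 0.17), whereas Gbp8 was lower at 4.65, 5.98, 14.4 and 8.48 in vehicle and 1.82, 2.52, 2.16 and 3.36 in the combination (-1.76 ± 0.54). Their median was 0.21, turning to -0.04 without vehicle 4, although all 9 with a promoter in the table held the response element core. Of the 17 receptors and factors, Irf7 was higher at 41.7, 71.2, 42.5 and 92.4 in vehicle and 139, 87.5, 275 and 244 in the combination (1.59 ± 0.39), with combination 2 inside the vehicle range. Irf8, the factor of dendritic cells and B cells, was lower at 41.9, 34.6, 53 and 158 in vehicle and 21.2, 16.4, 19.3 and 11.3 in the combination (-2.07 ± 0.57). MHC class I genes, which present peptides to T cells, were higher in 8 of 16, with a median of -0.05 and none of them wholly apart from vehicle.

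Replication genes leaned higher. Among 20 genes of the MCM helicase and origin licensing, which load the replicative helicase onto DNA, 14 were higher, with a median of 0.23, and 5 reached p under 0.05, or 3 without combination 3. Mcm6 measured 393, 316, 339 and 430.3 CPM in vehicle and 615, 603, 488 and 534 in combination libraries (0.60 ± 0.15, edgeR adjusted p = 0.221), and Mcm7 339.5, 312, 275 and 372 in vehicle and 505, 477, 399 and 407 in the combination (0.46 ± 0.14). Both subunits lay wholly above vehicle, 2 of 20 against 3.38% of all genes. The licensing factor Cdc6 measured 29.5, 57, 89.2 and 48.0 in vehicle and 89.8, 73.3, 108 and 73.5 in the combination and overlapped through vehicle 3.

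Of 27 genes for polymerases, the sliding clamp and nucleotides, 20 were higher, with a median of 0.15. Of the 27, 5 were higher at p under 0.05 (18.5% against 4.99% of all genes), or 9 without vehicle 3 and 4 together. The median was 0.09 without vehicle 1 and 0.07 without vehicle 2 or with the GC offset, which left 4 higher and 1 lower at p under 0.05. Pcna, the clamp, measured 267, 267, 270.0 and 325 CPM in vehicle and 429, 342, 424 and 435 in combination libraries (0.53 ± 0.14). Prim2, the large subunit of primase, measured 29.9, 20.5, 27.2 and 32.8 in vehicle and 49.9, 35.1, 42.5 and 43.3 in the combination (0.63 ± 0.19). Pole2, a subunit of DNA polymerase epsilon, measured 12.4, 17.5, 19.3 and 22.5 in vehicle and 30.9, 24.5, 29.1 and 31.3 in the combination (0.69 ± 0.24). All 3 lay wholly above vehicle, 11.1% of the list against 3.38% of all genes. After palbociclib alone the 2 lists had medians of 0.49 and 0.41 against the same vehicle libraries, and after rapamycin alone -0.02 and 0.01.

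E2F factors are the known regulators of these genes. The sites TTTCGCGC, TTTGGCGC and TTTCCCGC, searched on both strands of the same 250 bases, were held by 6 of 15 licensing genes with a promoter in the table (40.0%), 3 of 23 polymerase and nucleotide genes (13%) and 1.78% of all 27025 genes. Among tested genes the share was 3.33%. The 6 were Mcm5, Mcm6, Mcm7, Cdc6, Orc1 and Gins3, of which Gins3 was lower (-0.47). Mcm5 (0.29), Orc1 (0.71) and Gins3 had an unadjusted p above 0.05. The matches in 4 of them, in capitals and either way round, stood as follows.
Mcm6 (chr1:128359718-128359777, minus strand): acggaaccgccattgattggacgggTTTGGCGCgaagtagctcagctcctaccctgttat
Mcm7 (chr5:138172014-138172073, minus strand): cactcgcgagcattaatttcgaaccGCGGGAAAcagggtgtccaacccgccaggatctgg
Cdc6 (chr11:98907988-98908047, plus strand): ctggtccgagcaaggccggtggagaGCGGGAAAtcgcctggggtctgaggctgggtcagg
Gins3 (chr8:95633493-95633552, plus strand): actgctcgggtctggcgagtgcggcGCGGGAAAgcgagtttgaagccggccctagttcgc
No match in this window says nothing of the factor's binding elsewhere.

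Mitosis genes had no stable direction. Of 30 genes of mitosis and the spindle, 18 were higher and 0 reached an unadjusted p under 0.05 in edgeR, with a median of 0.10. That median was -0.11 without combination 3, -0.02 without combination 4, -0.01 without vehicle 4 and -0.01 in limma-voom. DESeq2 called 0 of them. Cenpf, a kinetochore protein, was at -0.90 ± 0.45, and the checkpoint kinase Bub1 at 0.96 ± 0.50. G1 cyclins, CDKs and RB-E2F genes were higher in 17 of 24 tested, with a median of 0.16 (0.11 without combination 1). Only 1 (4.17%) was higher at p under 0.05, against 4.99% of all genes. Cdk6 and Cdk2 lay wholly above vehicle, 8.33% of the list against 3.38% of all genes. Cdk2 measured 126, 128, 137 and 145 CPM in vehicle and 157, 165, 152 and 151 in combination libraries, a log2 difference of only 0.22 ± 0.14.

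Among p53 targets 9 of 16 were higher, with a median of 0.03. Gdf15, a stress cytokine, lay wholly lower at 5.86, 5.46, 22.6 and 6.39 CPM in vehicle and 4.91, 3.88, 3.91 and 3.18 in combination libraries. Genes of homologous recombination and the Fanconi pathway, which repair breaks and crosslinks, were higher in 11 of 16, with a median of 0.17 and none wholly apart from vehicle. The median was 0.06 without vehicle 2 or combination 1, 0.27 without combination 2 and 0.39 without vehicle 3.

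Of 29 genes of mTOR complexes and regulators 13 were higher, with a median of -0.08 that was -0.04 without vehicle 3 and 0.01 without vehicle 3 and 4. Deptor, an inhibitor that sits in both mTOR complexes, measured 20.0, 27.0, 19.4 and 21.4 CPM in vehicle and 31.7, 36.9, 31.4 and 37.0 in combination libraries (0.64 ± 0.21). Sesn3, a sestrin that restrains mTOR complex 1, measured 27.8, 21.1, 33.1 and 12.3 in vehicle and 12.4, 13.5, 5.96 and 8.73 in the combination (-1.21 ± 0.40), overlapping by a little. Ddit4, the inhibitor REDD1 induced by stress, measured 20.4, 4.50, 12.8 and 6.17 in vehicle and 5.54, 4.08, 2.57 and 2.64 in the combination (-1.56 ± 0.54), with vehicle 1 the highest.

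Translation factors were higher in 26 of 34, with a median of 0.15 that was 0.29 without vehicle 4. Of the 34, 6 were higher at p under 0.05 (17.6% against 4.99% of all genes) and 1 lower (2.94% against 5.53%). Besides Eif4a1, Eif2s3x, the gamma subunit of the factor that brings the first tRNA, measured 62.8, 78.0, 80.8 and 102 CPM in vehicle and 134, 108, 169 and 181 in combination libraries (0.87 ± 0.26). Eif1a, which helps scan for the start codon, measured 115, 148, 147 and 164 in vehicle and 188, 182, 272 and 259 in the combination (0.65 ± 0.20). Eif1, which guards start codon choice, was the 1 lower, at 1404, 1363, 1657 and 2215 in vehicle and 970.2, 1213, 994 and 913 in the combination (-0.70 ± 0.20, edgeR adjusted p = 0.259), wholly below vehicle.

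Cytosolic ribosomal protein genes were higher in 24 of 79, with a median of -0.08 that turned to 0.05 without vehicle 4 and on log2 TPM and was -0.25 without vehicle 3. At p under 0.05, 2 of them were lower (2.53% against 5.53% of all genes) and 1 higher (1.27% against 4.99%). The 2 became 20 without vehicle 3, the library with the low ribosomal protein share, 1 without vehicle 1, vehicle 2 or combination 3, and 0 without vehicle 4. Rpl4 measured 615, 982, 759.9 and 1044 CPM in vehicle and 1281, 1082, 1367 and 1300.3 in combination libraries (0.56 ± 0.18), wholly higher, and Rps13 368, 367, 214 and 469.7 in vehicle and 259, 248, 207 and 204 in the combination (-0.63 ± 0.22). Ribosome biogenesis genes were higher in 24 of 32, with a median of 0.14. Nolc1, a nucleolar chaperone, measured 88.8, 109.6, 54.4 and 122 in vehicle and 129.9, 142, 137 and 142 in the combination (0.56 ± 0.20).

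Lysosome and autophagy genes, which mTOR restrains, were higher in 24 of 35, with a median of 0.09 that ran from 0.06 without vehicle 4 or combination 2 to 0.18 without vehicle 2. Lamp2, a lysosomal membrane protein, measured 134, 199.7, 155 and 213 CPM in vehicle and 318, 219.9, 599 and 556 in combination libraries (1.27 ± 0.34), highest in combination 3 and 4. Tfeb, the factor that switches lysosome genes on, was wholly lower at 15.9, 16.2, 15.3 and 39.1 in vehicle and 11.5, 11, 10.1 and 11.4 in the combination (-0.98 ± 0.40), and Atp6v0d1, a subunit of the proton pump, at 107, 70.4, 144 and 88.2 in vehicle and 61.6, 59.4, 65.8 and 50.5 in the combination (-0.79 ± 0.26). FOXO factors and targets, which support stem cell quiescence, were lower in 10 of 15, with a median of -0.21. It was -0.08 without vehicle 4, -0.39 without vehicle 3 and -0.40 without combination 3. Of the 15, 4 were lower at p under 0.05 (26.7% against 5.53% of all genes) and 1 higher (6.67% against 4.99%). Without vehicle 3 and 4 together 1 was lower and 1 higher. Wholly below vehicle were 3 (20.0% against 2.18% of all genes), and 1 lay wholly above (6.67% against 3.38%). Klf2 measured 28.8, 22.6, 32.0 and 42.0 in vehicle and 11, 13, 21.4 and 15.6 in the combination (-1.04 ± 0.31). Ccng2 was the 1 wholly higher, at 111, 85.6, 134 and 109.8 in vehicle and 139, 141, 180.2 and 185 in the combination. Of 11 tested MYC and MAX network genes 8 were lower, with a median of -0.24 that was -0.06 without combination 2.

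In energy metabolism, glycolysis and the respiratory chain leaned in opposite directions by small amounts. Glycolysis genes were higher in 17 of 20, with a median of 0.24 that was 0.39 without vehicle 2, and 5 of 20 lay wholly above vehicle against 3.38% of all genes. Pgk1 measured 301, 376, 218 and 319.9 CPM in vehicle and 466, 381, 498 and 445 in combination libraries (0.56 ± 0.17), Tpi1 556, 607, 398 and 522 in vehicle and 689.6, 822, 707 and 622 in the combination (0.45 ± 0.16). Slc2a3, a glucose transporter, measured 214, 405, 432 and 280.4 in vehicle and 456, 554, 492 and 578 in the combination (0.64 ± 0.23). At p under 0.05, 3 glycolysis genes were higher (15.0% against 4.99% of all genes) and 0 lower, and 8 were higher without vehicle 2. Without vehicle 4 there were 5 higher and 2 lower, and without vehicle 3 and 4 together 2 higher and 3 lower. After rapamycin alone the same list had a median of -0.21 against vehicle.

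Nuclear genes of the respiratory chain were lower in 48 of 59, with a median of -0.14 that was -0.05 without vehicle 3. At p under 0.05, 7 were lower (11.9% against 5.53% of all genes) and 1 higher (1.69% against 4.99%). Without vehicle 3 and 4 together 3 were lower and 1 higher. Cox8a, a subunit of cytochrome oxidase, measured 373, 394, 336 and 396 CPM in vehicle and 305, 296, 275 and 257 in combination libraries (-0.40 ± 0.12). Ndufs6, a subunit of complex I, measured 97.7, 116, 102 and 113 in vehicle and 90.7, 83.7, 87.3 and 81.1 in the combination (-0.33 ± 0.12). Both lay wholly below vehicle, by small amounts. Sdha, a subunit of complex II and of the citric acid cycle, was wholly higher at 535, 460, 523 and 654 in vehicle and 698, 696, 698 and 834 in the combination (0.43 ± 0.15). The 13 genes encoded in mitochondrial DNA were higher in 10, with a median of 0.23, and 0.07 without vehicle 3 and 4 together. Single libraries moved it to 0.10 (without vehicle 3 or combination 3) and 0.40 (without vehicle 2). The gene mt-Nd4l had no count in any vehicle library or in combination 3, and measured 6.57, 5.65 and 7.55 CPM in combination 1, 2 and 4.

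Sterol and fatty acid genes were higher in 14 of 27, with a median of 0.05 that was -0.01 without vehicle 4 and 0.02 without combination 3. Scd1, a fatty acid desaturase, measured 10.3, 10.3, 9.01 and 304 CPM in vehicle and 7.52, 5.85, 7.81 and 7.55 in the combination, so vehicle 4 stood alone. ATF4 targets of the amino acid response had a median of 0.04, or -0.05 without vehicle 3 or combination 3, with 0 of 22 at an unadjusted p under 0.05 in edgeR and 0 called by DESeq2. Chaperones of the endoplasmic reticulum were higher in 14 of 19, with a median of 0.23. That was 0.02 without combination 3, 0.07 without vehicle 1, 0.40 without combination 2, 0.45 without vehicle 3 and 0.55 without vehicle 3 and 4. Pdia3, a disulphide isomerase, measured 436, 617, 657 and 546 in vehicle and 860.3, 648, 1358 and 1171 in the combination (0.84 ± 0.23), highest in combination 3 and 4. Heat shock chaperones had a median of -0.06.

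Genes of AP-1 and the immediate early response, the first to be transcribed after a stimulus, leaned lower in 18 of 25, with a median of -0.35 (-0.22 without vehicle 4). Of the 25, 5 were lower at p under 0.05 (20.0% against 5.53% of all genes) and 1 higher (4.0% against 4.99%). Nr4a1, an orphan nuclear receptor, measured 892, 601, 903 and 594 CPM in vehicle and 356, 414, 230.2 and 238 in combination libraries (-1.27 ± 0.38, edgeR adjusted p = 0.259), with every vehicle library above every combination library. Maff, a small MAF factor, measured 15.3, 11.5, 27.2 and 9.91 in vehicle and 5.70, 5.24, 5.55 and 4.64 in the combination (-1.60 ± 0.39). Jund measured 455, 399, 546 and 593 in vehicle and 324, 416, 318 and 285 in the combination (-0.57 ± 0.26), and combination 2 overlapped vehicle. The 5 lower became 3 without vehicle 4 or combination 3 and 2 without combination 4. After palbociclib alone the list's median was -0.66 and after rapamycin alone -0.18, against the same vehicle libraries.

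NF-kB targets had a median of -0.01, and 0.12 in limma-voom, with Nfkb1 wholly higher at 77.0, 178, 143 and 193 CPM in vehicle and 212, 282, 212 and 243 in combination libraries (0.69 ± 0.23). Il1b, an inflammatory cytokine of myeloid cells, was also wholly higher at 12.8, 13.5, 10.1 and 3.19 in vehicle and 28.9, 17.4, 35.5 and 33.3 in the combination (1.53 ± 0.61). Feedback inhibitors of cytokine and growth factor signalling had a median of -0.15, which was 0.09 without vehicle 1 and -0.03 without combination 4. Spry1, an inhibitor of receptor tyrosine kinase signalling, was lower at -1.36 ± 0.51 and Dusp6, a phosphatase of ERK, higher at 0.61 ± 0.22.

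Genes of stem cell identity did not lean one way. Of 25 HSC transcription factors 16 were lower, with a median of -0.13. It was 0.07 without vehicle 1, the 1 alternative that turned its sign. Without vehicle 4 it was -0.28, and -0.39 without vehicle 3 and 4 together. Of the 25, 2 were lower and 2 higher at p under 0.05, or 6 lower and 1 higher without vehicle 3 and 4 together. Zfpm1 and Hoxb4 lay wholly below vehicle, 8.0% of the list against 2.18% of all genes. Hoxb4, a homeobox factor that expands HSCs when supplied, was at 11.1, 2.77, 5.32 and 2.42 CPM in vehicle and 1.5, 1.43, 0.720 and 1.00 in the combination (-2.20 ± 0.61). Fli1, an ETS factor, was higher at 0.46 ± 0.22. Among 20 tested surface receptors 12 were higher, 4 of them at p under 0.05 (20.0% of the list against 4.99% of all genes). The median of the 20 receptors, 0.12, was -0.02 without vehicle 4, 0.04 without vehicle 3, 0.06 without combination 4, 0.22 without vehicle 1 and 0.30 without vehicle 2.

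Cd34, a sialomucin scarce on long-term mouse HSCs and common on progenitors, measured 113, 197, 158 and 188 TPM in vehicle and 304, 471, 286 and 355 in combination libraries, wholly apart (0.99 ± 0.30 on the count scale, edgeR adjusted p = 0.263). Cd27, a receptor gained in progenitors, measured 62.6, 109.8, 76.7 and 107 CPM in vehicle and 140.1, 193, 121 and 145 in the combination (0.75 ± 0.27). Itga2b, the platelet integrin CD41, measured 219, 213, 122 and 512 in vehicle and 648, 465, 507 and 772 in the combination (1.17 ± 0.43), overlapping through vehicle 4. The genes of the sort markers CD150, CD48, Sca-1 and CD117, namely Slamf1, Cd48, Ly6a and Kit, were at -0.23, 0.36, 0.52 and 0.37, all with overlapping groups. Of these signs, 3 rested on single libraries or pairs, at 0.08 for Slamf1 without vehicle 1, -0.44 for Cd48 without combination 3 and -0.05 for Kit without vehicle 3 and 4. Ly6a varied widely in vehicle, at 199.9, 525, 90.3 and 1006, against 500.0, 619, 793 and 705 in the combination.

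Markers of multipotent progenitors were higher in 10 of 13, with a median of 0.45 that was -0.07 without combination 3. Their summed CPM was 1089, 9540, 11233 and 2233 in vehicle and 4965, 1681, 13755 and 4025 in combination libraries. That of azurophil granule genes was 2215, 14251, 19652 and 1854 in vehicle and 7013, 1274, 19914 and 4730 in the combination. The part of granule RNA in the progenitor list was not tested. Csf3r, the receptor of the granulocyte growth factor, measured 62.2, 279, 218 and 177 CPM in vehicle and 327, 331, 629 and 493 in combination libraries (1.27 ± 0.43). Flt3, the receptor that marks lymphoid-primed progenitors, measured 17, 75.6, 38.4 and 92.2 in vehicle and 65.0, 127, 148 and 107 in the combination (1.00 ± 0.49), overlapping. A list of genes reported to go up with HSC age had 19 of 25 lower, with a median of -0.36, but 0.08 without vehicle 1. Fhl1, a LIM protein, measured 108, 58.1, 55 and 17.2 in vehicle and 24.4, 27.4, 11 and 26.5 in the combination (-1.41 ± 0.56), and Selp went against the list at 0.49 ± 0.25. Megakaryocyte and platelet genes were lower in 12 of 20, with a median of -0.11 that was 0.22 without vehicle 1 and 0.05 without combination 3.

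Markers of other blood cells varied widely between libraries. B cell markers were lower in 18 of 18, with a median of -4.82, which was -1.04 without vehicle 4. Their summed CPM was 1929, 2002, 9586 and 40619.6 in vehicle and 2351, 61.5, 8728 and 5182 in combination libraries, so vehicle 4 was highest and combination 2 lowest. At p under 0.05, 14 were lower (77.8% against 5.53% of all genes), and 2 without vehicle 4. Vpreb3, a protein of developing B cells, lay wholly below vehicle at 4.05, 4.76, 10.0 and 76.0 in vehicle and 0.712, 0.204, 0.617 and 0.636 in the combination (-5.44 ± 1.18). Cd79b, the B cell receptor's signalling chain, measured 46.2, 34.6, 46.4 and 467 in vehicle and 28.4, 31.8, 31.5 and 28.7 in the combination.

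The next list joins MHC class II genes, with which dendritic cells and B cells present antigen, to dendritic cell markers. The summed CPM of its 13 tested genes was 1588, 1518, 1846 and 27908 in vehicle and 952, 1109.7, 1019 and 885 in combination libraries. H2-Aa measured 198, 199, 210.5 and 3495 in vehicle and 81.6, 92.0, 80.3 and 63.9 in the combination (-3.69 ± 0.90), and Cd74, the invariant chain, 529, 374, 592 and 15570 in vehicle and 204, 170.5, 291 and 192 in the combination (-4.31 ± 1.12). Of the 13, 11 were lower and 2 higher. Wholly below vehicle were 6, against 2.18% of all genes, and 1, the interferon-stimulated Bst2 given above, lay wholly above. At p under 0.05, 7 were lower (53.8% against 5.53% of all genes) and Bst2 was higher. The 7 became 5 without vehicle 4, when the median went from -2.07 to -0.80. With vehicle 3 and 4 both left out 1 was lower at p under 0.05 and the median was -1.02. The part of B cell RNA in these values was not tested.

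Against these same vehicle libraries the B cell median was -2.92 after palbociclib and -3.59 after rapamycin, and vehicle 4 enters all 3 values. T and NK cell markers were lower in 15 of 16, with a median of -2.30, and -1.09 without vehicle 4. Of 7 lower at p under 0.05, against 5.53% of all genes, 1 was left without vehicle 4 and 4 without combination 2. Erythroid genes were lower in 12 of 18, with a median of -0.78 that was -1.28 without combination 1. Hba-a2, an alpha globin gene whose reads Hba-a1 can share, measured 70.4, 275, 481 and 131 CPM in vehicle and 112, 12.5, 58.2 and 37.8 in combination libraries (-2.12 ± 0.86), overlapping. The erythroid sums were 2013, 1856, 3417 and 953 in vehicle and 1449, 1006, 1054 and 1338 in the combination. At p under 0.05, 3 erythroid genes were lower (16.7% against 5.53% of all genes). The 3 became 6 without vehicle 4, 1 without vehicle 2 or combination 3, and 0 without vehicle 3, combination 2 or combination 4.

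Late neutrophil markers were higher in 13 of 18, with a median of 0.48. It was 0.06 without combination 3, 0.17 without vehicle 1, 0.32 without combination 4, 0.78 without combination 2 and 1.00 without vehicle 2. Chil3, a lectin of neutrophils and macrophages, measured 645, 3186, 2382 and 2112 CPM in vehicle and 3258, 583, 12749 and 8494 in combination libraries, so combination 2 was the lowest library of all 8 and combination 3 the highest. Mast cell and basophil genes were higher in 6 of 8 tested, with a median of 1.00. It was 0.66 without vehicle 4 and 2.44 without vehicle 3 and 4 together. Fcer1a, the alpha chain of the IgE receptor, measured 3.44, 1.99, 2.72 and 7.71 in vehicle and 22.7, 12.5, 18.7 and 21.1 in the combination (2.25 ± 0.84), wholly apart. The defining Cpa3 was at 0, 0.866, 0 and 4.74 in vehicle and 3.96, 1.70, 7.61 and 6.09 in the combination. Stromal and endothelial genes were higher in 10 of 12 at low levels, with a median of 0.68, 0.42 without vehicle 4 and -0.03 without combination 1, where Kdr, the endothelial VEGF receptor, was at 14.8 CPM. The part of these cells' RNA in the results above was not tested, other than by leaving out the libraries named.

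**Figure D4:**
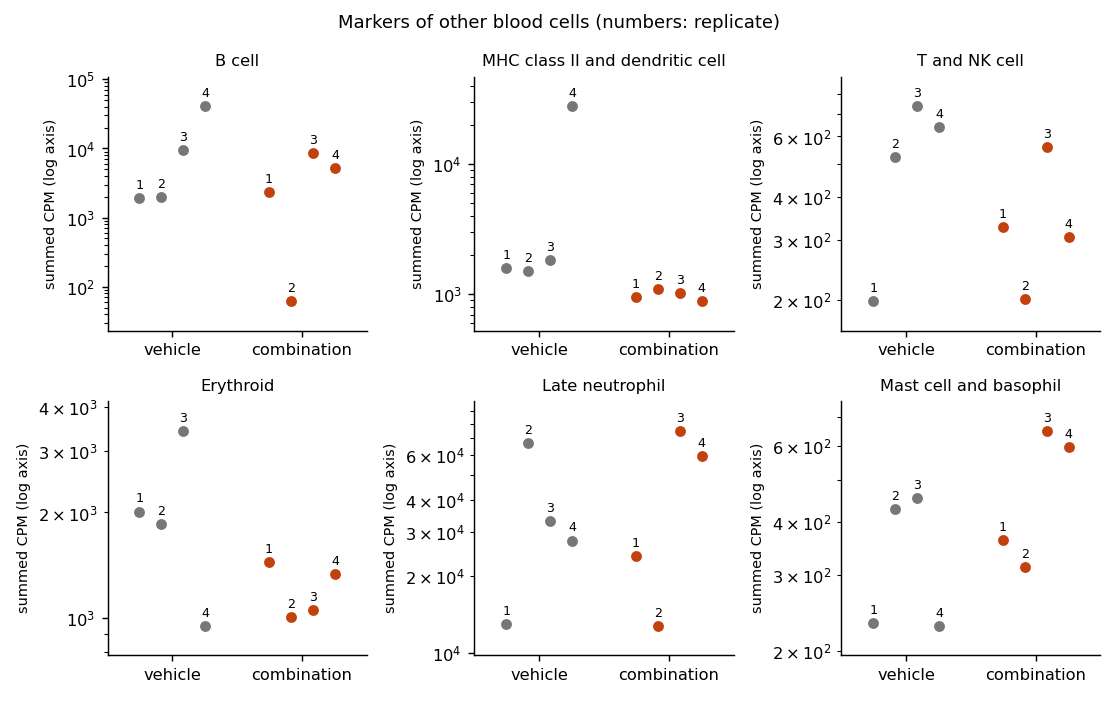
Summed CPM of marker genes of 6 other blood cell types (panels, log axis) in each vehicle (grey) and combination (orange) library, with library numbers beside the points. Vehicle 4 stands apart in B cell and MHC class II markers, and the MHC class II sums of the combination, 885 to 1109.7, all lie below those of vehicle.

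The last lists held histones, structural RNAs and imprinted genes. Replication-dependent histone genes, whose messages lack a poly(A) tail, were lower in 17 of 21 tested, with a median of -0.37. Hist1h4d measured 60.8, 72.2, 12.7 and 43.1 CPM in vehicle and 24.8, 9.19, 15.7 and 9.36 in combination libraries (-1.67 ± 0.60). Small structural RNAs and their host genes were lower in 12 of 13 tested, with a median of -0.48, and 3 lay wholly below vehicle, against 2.18% of all genes. Besides Rn7sk these included Snhg12, a snoRNA host gene, at 11.4, 15.5, 10.6 and 13 in vehicle and 7.6, 7.56, 4.52 and 6.18 in the combination (-0.96 ± 0.31). Of 10 imprinted genes tested 6 were lower, with a median of -0.25 that was 0.07 without vehicle 1, -0.41 without vehicle 2 and -0.15 without combination 3. Plagl1, a zinc finger factor, was lower at p under 0.05 at levels of 0 to 1.81 CPM. Wholly higher were 3 of the 10, against 3.38% of all genes, among them Dlk1, a regulator of progenitor growth, at 4.22, 32.3, 2.72 and 32.3 in vehicle and 63.7, 65.2, 149.8 and 112 in the combination (2.45 ± 1.04). Chromatin modifiers were higher in 7 of 18, with a median of -0.03.

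Of the 47 lists, 25 had a median above 0 and 22 below. The median kept its sign in all 18 alternatives for 25 lists, among them antiviral effectors, ISG15 modification, MCM and licensing, glycolysis, the respiratory chain, immediate early genes, MHC class II and B cell markers. For the other 22 it turned in at least 1. At least 1 of the 2 limma fits turned it for ribosomal proteins, mitosis, MHC class I, heat shock, NF-kB, monocyte, azurophil granule and chromatin genes, whose medians lay between -0.08 and 0.10.

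**Figure D5:**
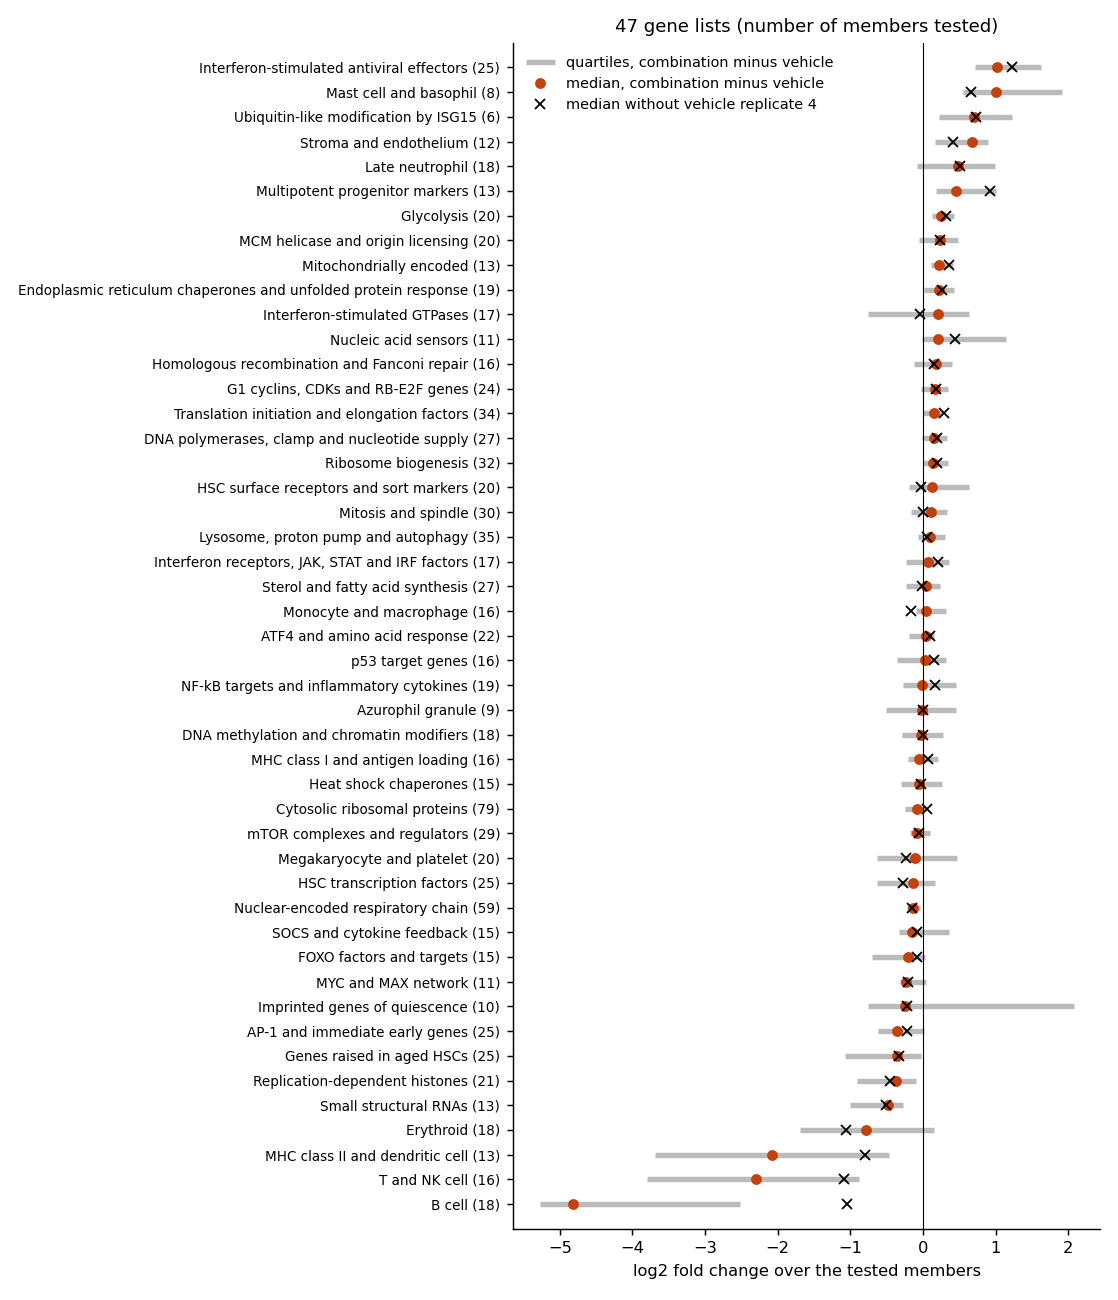
Median (orange point) and quartiles (grey bar) of the log2 fold change of combination minus vehicle over the tested members of 47 gene lists (rows, number tested in brackets), with black crosses for the median without vehicle replicate 4. Antiviral effectors stand at the top at 1.01, just above mast cell and basophil genes at 1.00. B cell markers stand at the bottom at -4.82, where leaving out vehicle 4 gives -1.04.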

How the data were processed

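RNA from sorted HSCs was sequenced in 16 libraries, 4 per treatment. The authors deposited estimated counts per gene, all whole numbers, and log2(TPM + 1) values for 50686 Ensembl genes. The submitters' processing notes name STAR 2.5.3a, RSEM 1.3.0, SAMtools 1.3 and mm10, with no roles. Files were matched to libraries by column name, and 50462 genes had a symbol from GENCODE M21. Genes passing edgeR's filterByExpr (minimum count 10, minimum total 15) in the 16 libraries went into the quasi-likelihood test of edgeR 4.0.16 (R 4.3.3) with TMM factors, a design of the 4 treatments and 12 residual degrees of freedom. All p-values were adjusted by Benjamini-Hochberg over the 15308 genes, and the common dispersion gave a biological coefficient of variation of 55.8%. Alternatives were DESeq2 1.42.0, limma 3.58.1 (voom, and log2 TPM), other scaling and filters, the 8 libraries alone, a replicate block, and leaving libraries out. The fit was tested on simulated data, with 50 changed genes at each size. It recovered 0% of 1.5-fold, 10% of 2-fold, 64% of 4-fold and 82% of 8-fold changes. No 2 replicates agreed within sampling noise (lowest chi-square per degree of freedom 23.6). The text names the 12 higher and 12 lower genes of smallest p among annotated genes whose mean log2 CPM reached 2 and whose groups did not overlap, up to 4 members of smallest p in each list, the drug targets, the sort markers, and up to 6 genes in each direction that DESeq2 called with an edgeR p under 0.001. A few genes outside this rule, such as Ifitm2, Oas1a, Scd1 and Kdr, were chosen after their values were seen, and a few that it takes are not reported here. The members, and the 47 gene lists with 961 distinct tested genes, were chosen with earlier results of these data known.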

Additional observations from a re-analysis of the deposited data

Results flagged for a closer look

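Of 194 groups of 4 libraries checked, 18 held a library whose gap to the nearest of the others exceeded Dixon's 95% critical value, where chance alone gives about 1 in 20. The cause was not tested for any of them. Among genes, Zfp46 measured 8.23 CPM in vehicle 3 against 6.37 to 6.41 in the other 3, and Rn7sk measured 8.43 CPM in vehicle 3 against 16.4 to 17.9 in the other 3. Egln1 measured 3.91 CPM in combination 4 against 7.96 to 8.70 in the other 3. Cdk6 measured 319.6 CPM in combination 1 against 223 to 239.5 in the other 3, and Ccnd2 measured 408 CPM in vehicle 1 against 262 to 274 in the other 3. Fkbp1a measured 371 CPM in vehicle 4 against 432 to 438 in the other 3. Slamf1 measured 60.4 CPM in vehicle 1 against 29.5 to 32.8 in the other 3, and 21.1 CPM in combination 3 against 35.1 to 38.0 in the other 3. Ephx1 measured 109 CPM in vehicle 4 against 12.6 to 20.7 in the other 3, and Acp5 measured 175 CPM in vehicle 4 against 8.35 to 24.0 in the other 3.

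Combination 2 was the lowest of its group in the mean log2 CPM of 4 lists. The G1 cyclin, CDK and RB-E2F genes averaged 5.22 there against 5.64 to 5.70 in the other 3, and the p53 targets 3.78 against 4.27 to 4.31. Homologous recombination and Fanconi genes averaged 3.28 against 3.86 to 3.87, and mast cell and basophil genes 1.22 against 3.62 to 3.89. In vehicle, MYC and MAX network genes averaged 5.46 in library 1 against 5.27 to 5.30, and stromal and endothelial genes 2.55 in library 2 against 1.71 to 1.79. Genes encoded in mitochondrial DNA averaged 5.58 in vehicle 3 against 6.73 to 6.88. The same library had a ribosomal protein share of 2.60% of counts against 4.84% to 5.17%.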

How the results depend on the processing

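In 17 of the 18 alternatives 0 genes passed an adjusted p of 0.05, and DESeq2 called 184. The number of genes at an unadjusted p under 0.05, 1611, was 2564 with no filter on low counts, which tests 31057 genes, and ranged from 1093 without combination 4 to 1913 without vehicle 2. The number of genes with groups that do not overlap, 851, was 766 to 848 under the other scalings, and wholly lower genes went from 333 to 188 on log2 TPM. The 16 antiviral genes higher at p under 0.05 numbered 13 to 19 when 1 library was left out and 12 without vehicle 3 and 4 together. The fit with a replicate block gave 0 calls, 1519 genes at an unadjusted p under 0.05 and 16 antiviral genes. Same-numbered libraries deviated together for numbers 1 and 3, where the combination library correlated best with its own number, and not for numbers 2 and 4 (correlations of 0.33, -0.13, 0.28 and -0.13). The labels do not say that a number marks a pair, so the fit without the block is the one reported. Of 792 pairs of a named gene and an alternative, 786 kept their direction, the exceptions being Ccnd1, Mtor, Slamf1, Cd48 and Kit as given above. Of the 792, 432 belong to the 24 genes picked for groups that do not overlap, whose direction could hardly turn. For Ccnd1 the value was -0.06 without vehicle 4 and -0.29 without vehicle 3 and 4. Of 44 named genes, 31 passed in DESeq2 and 0 in any other alternative. The common dispersion limits precision, and counts cover 10146176 to 15328830 per library. The cause of the difference between the tools was not tested.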
